A study of Homo sapiens with 8 samples.

Results

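The ZFP36 and regnase genes encode RNA-binding proteins that shorten the life of mRNAs, and 5 of them were followed here in DU145 cells given FGF19, TNFα or both. The members are ZFP36, ZFP36L1, ZFP36L2, ZC3H12A and ZC3H12C, taken as every probeset whose platform symbol is one of these names. Each gene had 1 probeset, so that 5 of the 33297 probesets on the array are described, and no probeset with several symbols carried any of the names. DU145 is an established human prostate cancer cell line. It was kept in medium without serum, and 4 groups of 2 biological replicates were hybridised to 8 Affymetrix Human Gene ST arrays. The FGF19 + TNFα group received 50 ng/ml FGF19 with 100 µg/ml heparin, followed after 10 min by 50 ng/ml TNFα for 90 min. The TNFα group received the same dose of TNFα for 90 min, the FGF19 group received FGF19 and heparin for 100 min, and Mock cells were untreated. These doses are those of the sample labels, and the methods of the study give lower doses of heparin and TNFα. No group received heparin alone, so that FGF19 and heparin cannot be told apart. All groups are 1 cell line, and the labels do not say what separated the replicates, so that the p-values measure only the spread between these arrays, which may be technical.

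Both families act on the mRNAs of cytokines, chemokines and early response genes. ZFP36 (tristetraprolin) and its relatives ZFP36L1 and ZFP36L2 carry tandem CCCH zinc fingers that bind AU-rich elements and recruit the CCR4-NOT deadenylase, which removes the poly(A) tail. ZC3H12A (regnase-1) and ZC3H12C (regnase-3) are endoribonucleases with a PIN domain, and regnase-1 cuts stem-loop structures in inflammatory mRNAs. ZFP36 and ZC3H12A are also known as early targets of inflammatory signaling, so that a decay factor and the mRNAs it destroys are induced together.

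The promoters are shown because 4 of the 5 mRNAs were higher with TNFα, which activates NFκB. RefSeq (GRCh38.p14) gave 6 windows for 4 of the genes, each of 300 bases from 250 before to 50 after an annotated start, and none for ZFP36L2. Consensus sequences for NFκB, for serum response factor (the CArG box), for AP-1 (TGANTCA), for CREB (TGACGTCA) and the TATA box (TATAAA) were searched on both strands. The windows printed are 1 for each gene, and for ZFP36L1 and ZC3H12C the one that held a match. They give bases ahead of the start only, with matches in capitals, and no match overlapped another.
ZFP36: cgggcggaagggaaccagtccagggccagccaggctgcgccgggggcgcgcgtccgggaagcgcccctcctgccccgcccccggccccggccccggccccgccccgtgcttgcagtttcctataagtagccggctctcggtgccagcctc
ZFP36L1: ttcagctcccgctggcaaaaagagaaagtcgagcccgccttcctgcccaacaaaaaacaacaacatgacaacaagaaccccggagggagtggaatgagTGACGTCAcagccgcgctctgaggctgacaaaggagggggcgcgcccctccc
ZC3H12A: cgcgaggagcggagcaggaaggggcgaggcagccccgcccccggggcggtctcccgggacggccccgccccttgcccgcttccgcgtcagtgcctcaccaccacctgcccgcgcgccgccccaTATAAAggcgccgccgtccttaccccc
ZC3H12C: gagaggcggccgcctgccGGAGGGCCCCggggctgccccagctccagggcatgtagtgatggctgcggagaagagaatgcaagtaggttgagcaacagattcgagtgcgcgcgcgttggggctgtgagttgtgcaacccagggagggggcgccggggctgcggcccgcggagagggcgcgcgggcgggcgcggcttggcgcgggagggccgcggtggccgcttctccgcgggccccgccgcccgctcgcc
The ZFP36 sequence is the plus strand at chr19:39406697-39406846, and its window held no match. The ZFP36L1 sequence is the minus strand at chr14:68793417-68793566 and holds the CREB sequence from 52 to 45 bases before the start. The ZC3H12A sequence is the plus strand at chr1:37474430-37474579 and holds the TATA sequence from 27 to 22 bases before the start. The ZC3H12C sequence is the plus strand at chr11:110093142-110093391 and holds an NFκB consensus match from 232 to 223 bases before the start. The other windows of ZFP36L1 and ZC3H12C held no match. Among all 35116 RefSeq windows, 11.3% held the NFκB consensus, 1.29% the CArG box, 7.71% the AP-1 sequence, 1.85% the CREB sequence and 11.5% the TATA sequence. A match describes the letters of the window and no binding was measured.

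Signal is the linear PLIER intensity of a probeset, and differences were tested on the log2 scale with limma over all 33297 probesets, with Benjamini-Hochberg adjustment and calls at 0.05. All 5 genes differed among the 4 groups by limma's moderated F test at an adjusted p under 0.015 (0.00205 to 0.00804), a level that 20.9% of all probesets reached. Array medians of signal lay between 99.5 and 106.6. Across probesets, the log2 signals of arrays within a group had correlations of 0.967 to 0.980. The correlations were 0.962 to 0.981 between arrays that differed only in TNFα, and 0.933 to 0.959 between arrays that differed in FGF19. The latter include pairs that differed in TNFα as well. The defining epithelial markers were bright on every array, with KRT18 at 2644 to 3618 and EPCAM at 1139 to 1608, whereas the prostate secretory genes KLK2 and KLK3 lay at 37.4 to 79.4. The leukocyte markers lay at 13.7 to 29.7 (PTPRC), 34.7 to 62.9 (CD3E) and 73.0 to 96.4 (CD14), the endothelial markers at 54.5 to 75.8 (PECAM1), 37.1 to 56.0 (VWF) and 315 to 412 (CDH5), and the fibroblast markers at 102 to 125 (COL1A1), 52.7 to 67.8 (COL1A2) and 14.2 to 23.5 (DCN). The signals of the 5 epithelial markers (KRT8, KRT18, KRT19, EPCAM and CDH1) summed to 6784 to 6947 with FGF19 + TNFα, 8663 to 8734 with TNFα, 6437 to 7118 with FGF19 and 9310 to 9689 in Mock, so that the sum was lower on every array given FGF19. The part of this difference in the FGF19 results was not tested. In bulk samples of 1 cell line, fewer cells with a transcript and less of that transcript per cell cannot be told apart.

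**Figure D1:**
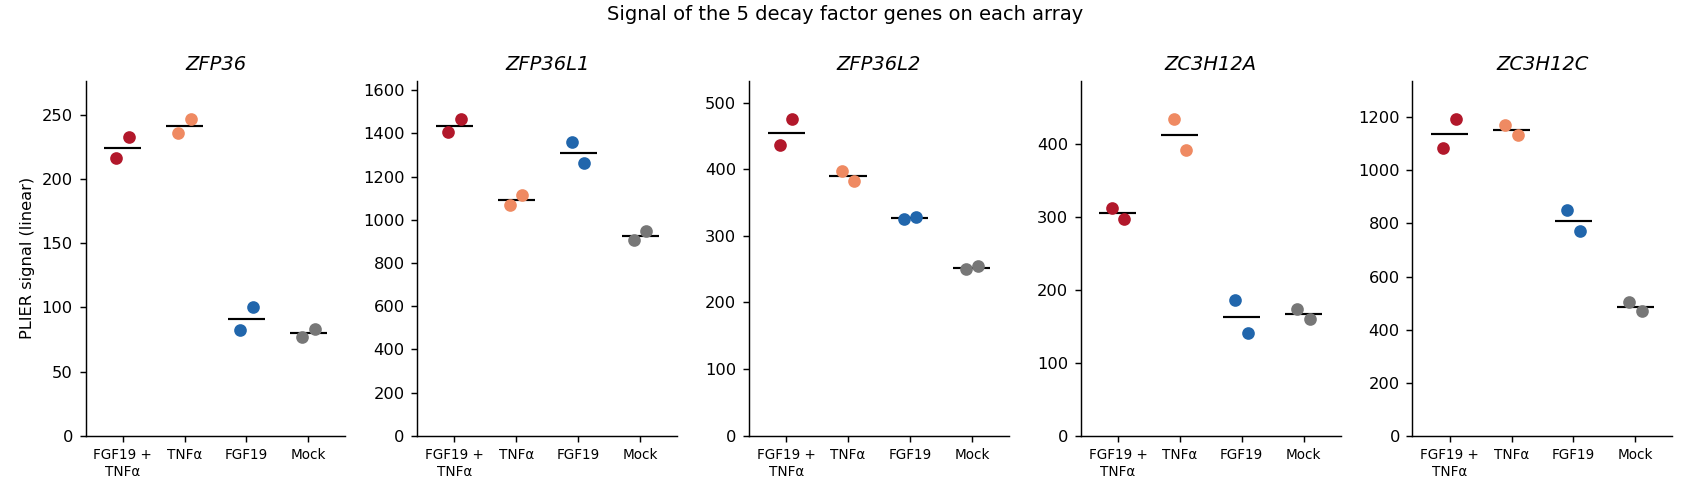
Linear PLIER signal (vertical axis, from 0, with its own scale in each panel) of the 5 decay factor genes on each of the 8 arrays, by group. Points are arrays and bars are geometric means of 2 arrays. ZFP36, ZFP36L2, ZC3H12A and ZC3H12C were higher on the 4 arrays with TNFα than on the 4 without it, whereas ZFP36L1 was highest on the 4 arrays with FGF19.

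TNFα raised 4 of the 5 genes relative to Mock, and the largest difference was in ZFP36. The signal of ZFP36 was 236 and 247 with TNFα and 76.7 and 83.1 in Mock. Both TNFα arrays lay far above both Mock arrays, and ZFP36 rose 3.02-fold (log2 difference 1.60, standard error 0.12, 95% interval 1.31 to 1.88, adjusted p in limma 0.00359, n = 2 in each group). In the groups not given TNFα, Mock and FGF19, ZFP36 lay near the middle of all probesets, between the 43.2 and the 49.1 percentile of its array. Both regnase genes rose to a similar degree. ZC3H12A had signals of 435 and 393 with TNFα and 174 and 160 in Mock, a 2.48-fold rise (log2 difference 1.31, standard error 0.15, adjusted p = 0.0166). ZC3H12C had signals of 1170 and 1132 with TNFα and 503 and 469 in Mock, a 2.37-fold rise (1.25, standard error 0.10, adjusted p = 0.0045). In both genes the lower TNFα array was well above the higher Mock array.

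The relatives of ZFP36 moved less with TNFα. ZFP36L2 had signals of 397 and 382 with TNFα and 250 and 255 in Mock, a 1.55-fold rise (log2 difference 0.63, standard error 0.08, adjusted p = 0.0328). ZFP36L1, which encodes the relative known as BRF1, had signals of 1071 and 1114 with TNFα and 906 and 948 in Mock. Its arrays did not overlap, but the 1.18-fold difference did not pass the test (log2 difference 0.24, 95% interval 0.03 to 0.45, adjusted p = 0.345). Of all probesets, 0.967% were called higher and 0.0961% lower with TNFα, against 4 and 0 of the 5 genes. The median log2 difference was 1.25 over the 5 genes and -0.04 over all probesets. ZFP36L2 was lost whichever of the 8 arrays was left out (adjusted p = 0.0576 to 0.234), with a replicate block (0.0669) and in a fit of only the groups compared (0.109). ZC3H12A was lost without moderation of the variances (0.0922), in a fit of only the groups compared (0.0548) and without either TNFα array (0.0905 and 0.0932), either Mock array (0.115 and 0.152) or either FGF19 + TNFα array (0.0511). ZC3H12C was lost without Mock replicate 2 (0.0632), whereas ZFP36 passed whichever array was left out (log2 difference 1.42 to 1.65 over all alternatives).

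**Figure D2:**
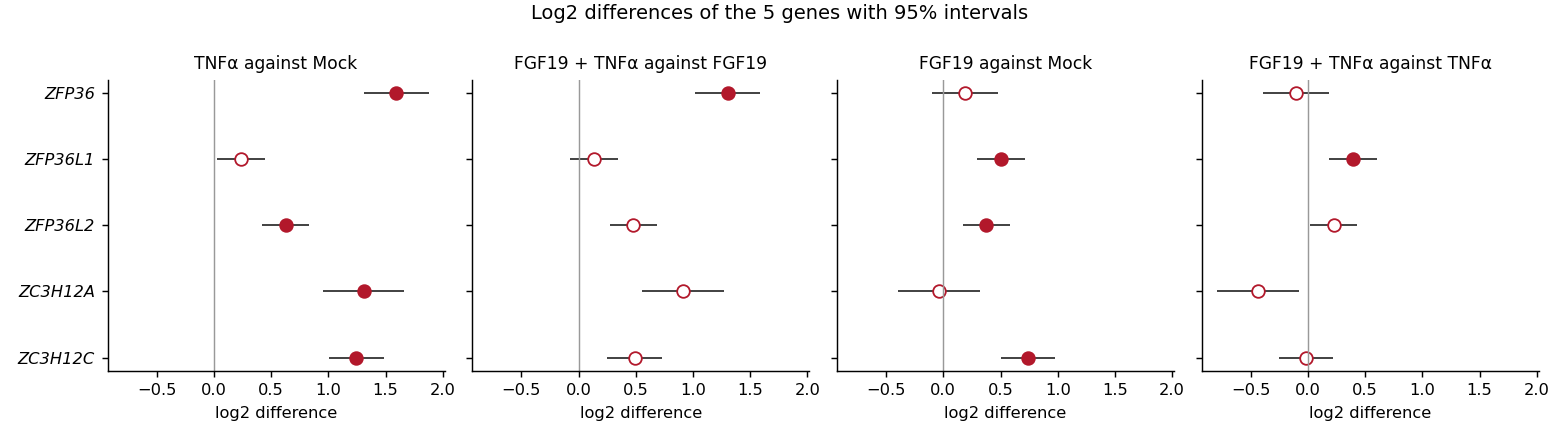
Log2 difference (horizontal axis) of each gene in 4 comparisons, with bars for the 95% interval from limma over 8 arrays. Filled points passed an adjusted p of 0.05 and open points did not. TNFα against Mock has 4 filled points, with ZFP36 at 1.60, and FGF19 against Mock has 3, with ZC3H12C at 0.74.

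With FGF19 and heparin, ZC3H12C, ZFP36L1 and ZFP36L2 rose relative to Mock, and ZFP36 and ZC3H12A showed no difference that passed the test. ZC3H12C had signals of 850 and 773 with FGF19 and 503 and 469 in Mock, a 1.67-fold rise (log2 difference 0.74, standard error 0.10, adjusted p in limma 0.00387, n = 2 in each group). ZFP36L1 had signals of 1361 and 1263 with FGF19 and 906 and 948 in Mock, a 1.42-fold rise (0.50, standard error 0.09, adjusted p = 0.00776). ZFP36L2 had signals of 325 and 328 with FGF19 and 250 and 255 in Mock, a 1.30-fold rise (0.37, standard error 0.08, adjusted p = 0.0189). The FGF19 and Mock arrays did not overlap in any of these genes, although 2 arrays against 2 can also separate without a difference. No share of all probesets is given for such separation, so it describes these arrays only.

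The arrays did overlap in ZFP36 and ZC3H12A, which had the largest log2 differences of the 5 with TNFα. ZFP36 had signals of 82.7 and 100 with FGF19 and 76.7 and 83.1 in Mock (log2 difference 0.19, 95% interval -0.10 to 0.47, adjusted p = 0.279). ZC3H12A had signals of 187 and 142 with FGF19 and 174 and 160 in Mock (-0.04, interval -0.40 to 0.32, adjusted p = 0.863), and its FGF19 replicates differed more from each other than the groups did. The 3 genes of 5 called higher stand against 18.2% of all probesets called higher, and the 0 called lower against 14.1%. The median difference was 0.37 over the genes and 0.08 over all probesets. ZFP36L1 was lost without Mock replicate 1 (adjusted p = 0.0518), and ZFP36L2 without FGF19 replicate 1 (0.0516), Mock replicate 1 (0.0943) or Mock replicate 2 (0.0796) and in a fit of only the groups compared (0.0705), whereas ZC3H12C passed under every alternative (0.0299 at most).

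The central comparison of the study sets FGF19 + TNFα against TNFα, to ask what FGF19 does to the TNFα response. ZFP36L1 was the only gene of the 5 called, and it was higher. Its signal was 1404 and 1467 with FGF19 + TNFα and 1071 and 1114 with TNFα, a 1.31-fold rise with no overlap (log2 difference 0.39, standard error 0.09, 95% interval 0.18 to 0.60, adjusted p in limma 0.018, n = 2 in each group). ZFP36L2 lay at 436 and 475 with FGF19 + TNFα and 397 and 382 with TNFα, and its 1.17-fold difference did not pass (0.22, interval 0.02 to 0.43, adjusted p = 0.0914, but 0.046 without moderation of the variances). Among the TNFα-raised genes, ZC3H12A lay at 312 and 298 with FGF19 + TNFα and 435 and 393 with TNFα. Neither combined array reached the level of a TNFα array, and the 1.35-fold lower mean did not pass the test (-0.44, interval -0.80 to -0.08, adjusted p = 0.0663).

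ZFP36 and ZC3H12C kept signals close to those of TNFα alone when FGF19 was added. ZFP36 lay at 216 and 233 with FGF19 + TNFα and 236 and 247 with TNFα, with no overlap but a difference that did not pass (log2 difference -0.11, interval -0.39 to 0.18, adjusted p = 0.522). ZC3H12C lay at 1086 and 1194 with FGF19 + TNFα and 1170 and 1132 with TNFα (-0.02, interval -0.25 to 0.22, adjusted p = 0.918), and its arrays overlapped. Of all probesets, 19.4% were called higher and 12.9% lower, against 1 and 0 of the 5 genes, and the median difference was -0.02 over the genes and 0.10 over all probesets. ZFP36L1 was lost whichever of the 4 arrays of these groups was left out (adjusted p = 0.0584 to 0.0939). ZC3H12A passed as lower without either FGF19 array (0.0223) and under 5 other alternatives (0.0344 to 0.0426).

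With FGF19 present, TNFα still raised ZFP36. Its signal was 216 and 233 with FGF19 + TNFα and 82.7 and 100 with FGF19, a 2.46-fold rise (log2 difference 1.30, standard error 0.12, adjusted p in limma 0.0163, n = 2 in each group). The other genes were not called. Their arrays did not overlap, but 2 arrays against 2 can also separate without a difference. This separation too is given without a share of all probesets and describes these arrays only. ZC3H12A was 1.88-fold higher (0.91, 95% interval 0.55 to 1.27, adjusted p = 0.139), ZC3H12C 1.40-fold (0.49, interval 0.25 to 0.73, adjusted p = 0.235) and ZFP36L2 1.39-fold (0.48, interval 0.27 to 0.68, adjusted p = 0.172). ZFP36L1 differed by 0.13 on the log2 scale (interval -0.08 to 0.34, adjusted p = 0.987). Few probesets were called at all in this comparison, 0.279% higher and 0.003% lower, against 1 and 0 of the 5 genes. ZFP36 was lost when any array except FGF19 replicate 2 was left out, with adjusted p-values of 0.0591 without FGF19 replicate 1, 0.0982 and 0.177 without an FGF19 + TNFα array, 0.0668 without either TNFα array and 0.0709 without either Mock array, and it was also lost without moderation of the variances (0.12) and in a fit of only the groups compared (0.257). ZC3H12A passed with 16 added before log2 (0.0399), with the dimmest probesets left out (0.0451) and with a trended and robust prior (0.0206), and ZC3H12C with that prior (0.0449).

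The combined treatment against Mock called all 5 genes. ZFP36 was 2.81-fold higher (log2 difference 1.49, standard error 0.12, adjusted p in limma 0.00162), ZC3H12C 2.34-fold (1.23, adjusted p = 0.00162), ZC3H12A 1.83-fold (0.87, adjusted p = 0.00695), ZFP36L2 1.81-fold (0.85, adjusted p = 0.00189) and ZFP36L1 1.55-fold (0.63, adjusted p = 0.0037). Of all probesets, 19.3% were called higher and 14.7% lower, against 5 and 0 of the genes. Each of the 5 passed under every alternative, with an adjusted p of 0.0468 at most.

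The interaction asks whether the TNFα difference with FGF19 departs from that without it. It was negative in all 5 genes and called in none of them by limma, and 0% of all probesets were called in either direction. The median interaction was -0.29 over the 5 genes and 0.03 over all probesets. Because the TNFα difference without FGF19 is subtracted in it, its sign is not independent of that difference. ZC3H12C had the largest departure, with a TNFα difference of 0.49 on the log2 scale with FGF19 and 1.25 without it (interaction -0.75, standard error 0.14, 95% interval -1.09 to -0.42, unadjusted p = 0.00144, adjusted p = 0.738). It was the only gene of the 5 at an unadjusted p under 0.05, a level reached by 833 probesets above 0 and 882 below 0. ZC3H12C was thus raised by TNFα and by FGF19 singly, and lay at 1086 and 1194 with both, against 1170 and 1132 with TNFα. The other interactions were -0.40 for ZC3H12A, -0.29 for ZFP36, -0.15 for ZFP36L2 and -0.11 for ZFP36L1 (adjusted p = 0.973 to 0.988). A p that misses the threshold does not show that these TNFα differences were equal.

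**Figure D3:**
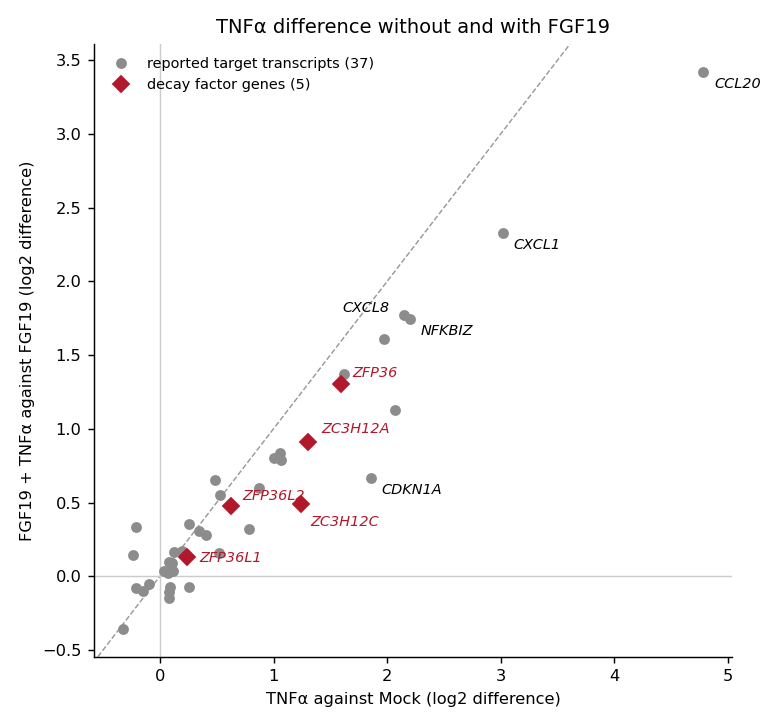
TNFα difference in log2 signal without FGF19 (horizontal axis, TNFα against Mock) and with it (vertical axis, FGF19 + TNFα against FGF19), for the 5 decay factor genes (diamonds) and 37 reported target transcripts (circles). The dashed line marks equal differences. All 5 diamonds lie below it, with ZC3H12C at 1.25 and 0.49.

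The order of the groups differed between the genes. ZFP36 was highest with TNFα and with FGF19 + TNFα, at geometric means of 241 and 224 that the test did not separate, and lowest with FGF19 and in Mock, at 90.9 and 79.9, which it did not separate either. ZC3H12A was also highest with TNFα and with FGF19 + TNFα, at 413 and 305, and lay at 163 with FGF19 and 167 in Mock. The test separated FGF19 + TNFα from Mock, its neighbour in that order, but neither FGF19 + TNFα from TNFα nor FGF19 from Mock. ZFP36L1 was highest with FGF19 + TNFα at 1435 and FGF19 at 1311, followed by TNFα at 1092 and Mock at 926, and neither the upper nor the lower pair of neighbours was separated by the test. ZFP36L2 descended from FGF19 + TNFα at 455 through TNFα at 390 and FGF19 at 327 to Mock at 252, with the FGF19 and Mock groups separated by the test and the 2 groups with TNFα not. In ZC3H12C the FGF19 + TNFα and TNFα groups lay at 1139 and 1151, FGF19 at 811 and Mock at 486, and of these neighbours only FGF19 and Mock were separated. TNFα and FGF19 were not set against each other in any gene. As a description over 8 arrays that share their groups, ZFP36 correlated with ZC3H12A at r = 0.925 and ZFP36L2 with ZC3H12C at 0.955, and ZFP36L1 correlated with ZC3H12A at 0.197.

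The profiles most like each gene were sought among 11291 probesets with 1 symbol at or above the median signal, by Pearson r in log2 signal over the same 8 arrays. ZFP36 was most like GATA6 and TIFA (both r = 0.997), followed by SGPP2, KLF7 and TNFAIP3 (0.996 each), and TNFAIP3 encodes the ubiquitin-editing inhibitor A20. ZC3H12A was most like NFKBID (0.983), LRP12 (0.979), AMOTL2 (0.976), IL23A and NFKB2 (0.975 each), of which NFKBID encodes an inhibitor-like NFκB regulator and NFKB2 an NFκB subunit. ZC3H12C was most like THBS1 (0.995), CCNL1 (0.991), EREG, BCL6 (0.985 each) and RNF19B (0.980). ZFP36L2 was most like KDM6B, CD274 and IRAK3 (0.996 each), MAST4 (0.995) and HIVEP2 (0.989), and ZFP36L1 was most like DAAM1 and ARHGAP42 (0.998 each), EFNA5, MBNL2 and UTP25 (0.996 each). With 4 groups of 2 arrays, such values mostly restate the order of the groups.

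The general mRNA decay machinery was examined as a list of 46 genes, all of them measured. It includes the CCR4-NOT and PAN deadenylases, decapping factors, the exosome and its SKI helpers, and also PARN, PABPC1, XRN1 and UPF1. None was called with TNFα against Mock by limma. At an unadjusted p under 0.05, CNOT4, DCP1A and PATL1 were higher (log2 differences 0.30 to 0.34). DCP1B, LSM1, LSM2, EXOSC3 and DIS3L were lower at that level (-0.35 to -0.24). Of all 33297 probesets, 2199 were higher and 1947 lower at the same level. The 3 of 46 that were higher thus lay near the share of the whole array. With FGF19 against Mock 18 of the 46 were called higher and 13 lower, where 18.2% of all probesets were called higher and 14.1% lower (median log2 difference 0.20, against 0.08 over all probesets). The helicase gene SKIC2 fell 2.09-fold, to a geometric mean of 174 with FGF19 against 363 in Mock (log2 difference -1.06, standard error 0.13, adjusted p = 0.00321). The exosome genes EXOSC5 and EXOSC2 fell 2.00-fold and 1.97-fold. Added to TNFα, FGF19 gave 18 called higher and 9 lower, beside 19.4% and 12.9% of all probesets. SKIC2 was 2.14-fold lower and EXOSC5 2.05-fold lower, and the decapping gene DCP1A was 1.86-fold higher, at 621 with FGF19 + TNFα and 333 with TNFα (0.90, standard error 0.10, adjusted p = 0.00355). In the FGF19 comparison the count called higher was 9 without FGF19 replicate 1 and 7 without either Mock array, and the count called lower was 8 without Mock replicate 1. With FGF19 + TNFα against TNFα the counts were 6 to 9 higher whichever of the 4 arrays of these groups was left out, and 4 lower without FGF19 + TNFα replicate 2 or either TNFα array.

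**Figure D4:**
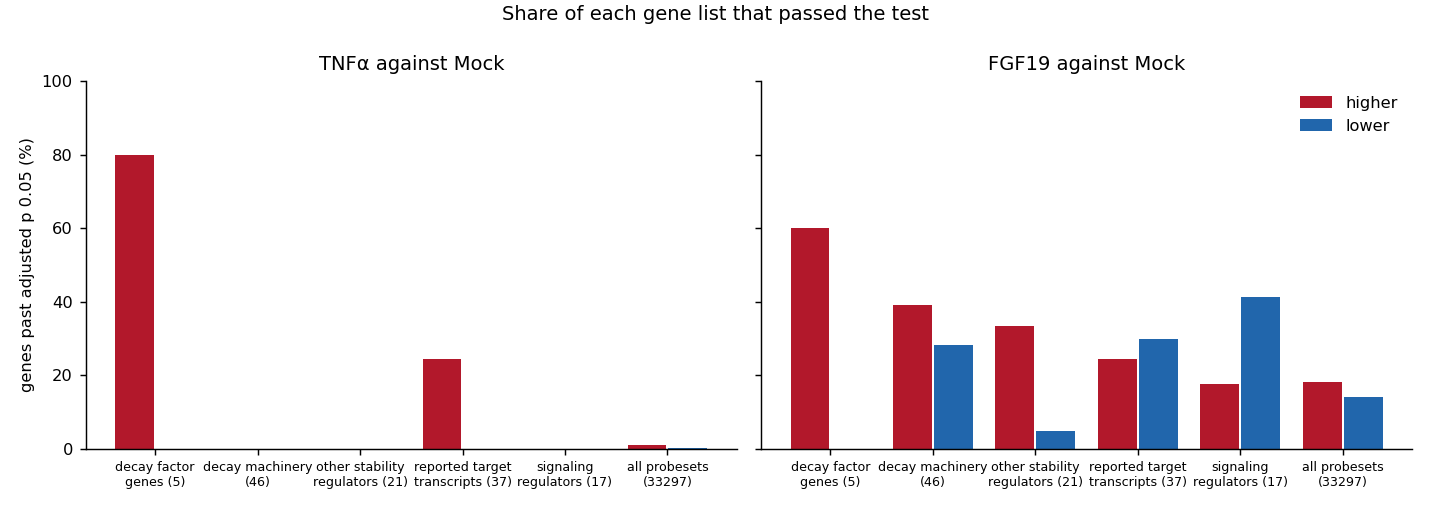
Share of each gene list called at an adjusted p under 0.05 (vertical axis, percent), higher (red) and lower (blue), with TNFα against Mock and FGF19 against Mock. The number of genes measured is in parentheses. With TNFα against Mock, 4 of 5 decay factor genes, 9 of 37 reported targets and none of the 46 genes of the decay machinery were called.

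Of the other RNA-binding regulators of mRNA stability, 21 of 22 listed genes were measured. None was called by limma with TNFα against Mock. ZC3HAV1 and IGF2BP2 were higher at an unadjusted p under 0.05 (log2 differences 0.26 and 0.24), as were 2199 of all 33297 probesets. With FGF19 against Mock 7 of the 21 were called higher and 1, the poly(C)-binding protein gene PCBP2, lower (1.32-fold, adjusted p = 0.0339), where the shares of all probesets were 18.2% and 14.1%. IGF2BP2, which encodes an mRNA-stabilizing protein, rose 1.91-fold (393 with FGF19, 206 in Mock), N4BP1, which encodes a relative of the regnases, rose 1.82-fold (531 and 291), and RC3H2, which encodes the decay factor roquin-2, rose 1.57-fold (1028 and 657). These genes were also called higher with FGF19 + TNFα against TNFα, by 1.80-fold, 1.76-fold and 1.55-fold. Relative to Mock, the count called higher with FGF19 was 4 without either Mock array, and PCBP2 was lost when any array except FGF19 replicate 2 was left out, with quantile normalization and in a fit of only the groups compared. With FGF19 + TNFα against TNFα 7 were called higher and 0 lower (19.4% and 12.9% of all probesets), and 3 were called higher without FGF19 + TNFα replicate 2 or either TNFα array. The remaining regnase genes, ZC3H12B and ZC3H12D, were called in no comparison, and the signal of ZC3H12B, 19.9 to 32.7, lay within the dimmest 19.3 percent of its arrays.

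Transcripts that the literature reports as targets of these factors were followed as 37 of 40 listed genes. With TNFα against Mock 9 of the 37 were called higher and 0 lower, beside 0.967% and 0.0961% of all probesets (median log2 difference 0.25). The other 28 were not called, among them TNF, IL1B and PTGS2 (adjusted p in limma 0.567, 0.832 and 0.894). These 3 were dim, with means of 20.2 to 49.4 in the 2 groups, below the array medians. At an unadjusted p under 0.05, 18 of the 37 were higher, beside 2199 of all 33297 probesets. The count called higher was 15 with 16 added before log2, with the dimmest probesets left out or with a trended and robust prior. The chemokine gene CCL20 rose 27.5-fold, with a mean signal of 2981 with TNFα and 108 in Mock, CXCL1 rose 8.11-fold and NFKBIZ, which encodes an inducible NFκB cofactor, rose 4.59-fold. Decay factors and several of their reported targets were thus higher in the same bulk samples, which do not show whether the same cells held both. FGF19 against Mock gave 9 called higher and 11 lower of 37, beside 18.2% and 14.1% of all probesets. The count called higher lay closer to the share of the whole array than the count called lower, and neither was tested against it. The phosphatase gene DUSP1 fell 2.19-fold, to 575 with FGF19 against 1259 in Mock, whereas CCL20 rose 2.32-fold and CXCL1 1.97-fold. Without Mock replicate 1 these counts were 5 and 3, and the count called lower was 6 without FGF19 replicate 1 or Mock replicate 2.

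Among the same 37 targets, 6 were called higher and 14 lower with FGF19 + TNFα against TNFα, beside 19.4% and 12.9% of all probesets. The 6 called higher included 2 dim genes below the array medians. These were IL12B, at 78.1 with FGF19 + TNFα and 51.5 with TNFα, and IL10, at 60.5 and 46.5. CDKN1A, which encodes the cell cycle inhibitor p21, fell 2.40-fold, to 284 with FGF19 + TNFα against 682 with TNFα (log2 difference -1.26, standard error 0.09, adjusted p = 0.00348). The urokinase receptor gene PLAUR fell 2.29-fold and the kinase gene PIM1 fell 2.24-fold. The count called lower was 8 without FGF19 + TNFα replicate 2 or either TNFα array, and the count called higher was 0 to 2 whichever of the 6 FGF19 + TNFα, TNFα and Mock arrays was left out. Against FGF19 alone, FGF19 + TNFα gave 7 called higher and 0 lower, beside 0.279% and 0.003% of all probesets, led by CCL20 (10.7-fold), CXCL1 (5.02-fold) and CXCL8 (3.41-fold). Without FGF19 + TNFα replicate 2 that count was 2, and CXCL8 was lost (adjusted p = 0.0576). No interaction was called among the targets. At an unadjusted p under 0.05 there were 2 above 0 and 9 below 0, beside 833 and 882 of all probesets.

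The factors are regulated after translation, ZFP36 by the p38 MAPK and MK2 kinases and by phosphatase 2A, ZFP36L1 also by AKT, and regnase-1 by IRAK1, the IKK kinases and the protease MALT1. Of a list of such signaling genes 17 of 18 were measured. None was called by limma with TNFα against Mock. MALT1 was higher at an unadjusted p under 0.05 (log2 difference 0.24), as were 2199 of all 33297 probesets. This 1 gene of 17 lay near the share of the whole array. With FGF19 against Mock 7 were called lower and 3 higher, namely BTRC (1.35-fold), MAPKAPK2, which encodes MK2 (1.26-fold), and MALT1 (1.23-fold). Over all probesets these shares were 14.1% lower and 18.2% higher, so that the 3 of 17 called higher lay at the share of the whole array. PPP2R1A, which encodes the scaffold subunit of phosphatase 2A, fell 2.53-fold, to 452 with FGF19 against 1142 in Mock (log2 difference -1.34, standard error 0.17, adjusted p = 0.00372), the kinase gene AKT1 fell 2.14-fold and IRAK1 fell 1.91-fold. Added to TNFα, FGF19 gave 2 called higher, BTRC and MAPKAPK2, and 7 lower (19.4% and 12.9% of all probesets), among them PPP2R1A by 2.44-fold, IRAK1 by 1.94-fold and AKT1 by 1.83-fold. Relative to Mock, the counts with FGF19 were 1 higher without either FGF19 array and 0 higher without either Mock array, and 4 lower without FGF19 replicate 1 or either Mock array. With FGF19 + TNFα against TNFα they were 0 higher and 2 to 3 lower whichever of the 4 arrays of these groups was left out, and AKT1 was lost without either FGF19 + TNFα array or TNFα replicate 1 (adjusted p = 0.0613 at most). The arrays measure mRNA, and neither protein level nor phosphorylation of the factors was measured.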

How the data were processed

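Total RNA of DU145 cells was hybridised to 8 arrays, and the labels gave each array's group. The authors deposited 1 table of linear intensity over 33297 probesets. The submitters' processing notes name Affymetrix Expression Console and PLIER, and the versions and any normalization step were not given in the sources used here. Before log2 was taken, 240 zeros were replaced by the lowest positive value on the same array. With limma 3.58.1 (R 4.3.3), lmFit and eBayes were run over all probesets and all 8 arrays with a coefficient per group. It was tested on simulated data with 200 changed probesets. Contrasts were called at a Benjamini-Hochberg adjusted p of 0.05 and the moderated F test at 0.015. Array signal carries no molecule count, so precision is limited by how many arrays there were.

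Symbols came from the platform annotation, updated through Entrez identifiers for 19429 of the 19460 probesets with 1 symbol. Another 1754 had several and 12083 none. The named genes were the members, up to 3 called genes with the largest log2 difference per list and comparison, and the 5 genes most correlated with each member. A listed gene was represented by its brightest probeset. The members and lists were chosen with earlier results of these data known, so that they are not independent evidence. As alternatives, the values were normalized by quantiles or by cyclic loess, 16 was added before log2, the dimmest 20 percent of probesets were left out, the variances were not moderated or had a trended and robust prior, only the groups compared were fitted, the replicate number was a block, and each array was left out. Figures were drawn with matplotlib 3.10.9.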

Additional observations from a re-analysis of the deposited data

How the results depend on the processing

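None of the 30 results, 5 genes in 6 contrasts, reversed in direction while called. Of their 475 values under the alternatives, 426 kept their side of the threshold, 37 lost the call and 12 gained it. The 5 genes called higher with FGF19 + TNFα against Mock were 5 under every alternative. With TNFα against Mock the count called higher, 4, was 2 with only the groups compared, 3 without moderation and 1 to 3 with an array left out. With FGF19 against Mock the 3 called higher were 2 with only the groups compared, ZFP36L2 being lost, and 1 to 3 with an array left out. With FGF19 + TNFα against TNFα the 1 called higher was 2 without moderation and 0 to 1 with an array left out. The 0 called lower became 1 with 16 added, with the dimmest probesets left out, with a trended and robust prior, with a replicate block and with only the groups compared, and 0 to 1 with an array left out. With FGF19 + TNFα against FGF19 the 1 called higher was 2 with 16 added, 2 with the dimmest probesets left out, 3 with a trended and robust prior, 0 without moderation, 0 with only the groups compared and 0 to 1 with an array left out. The 5 called by the F test were 1 to 5 with an array left out. Of the listed genes with FGF19 against Mock, a fit of only the groups compared called 9 of the decay machinery higher, 5 targets higher and 3 lower, and 0 signaling genes higher and 4 lower. For FGF19 + TNFα against TNFα, 14 of the decay machinery were called lower with the dimmest probesets left out or the trended prior, and 2 targets higher with only the groups compared. For FGF19 + TNFα against FGF19 that fit called 0 targets. The cause of these changes was not tested. Where an array is left out, its lone partner is assumed to vary like the other groups. The labels do not say whether arrays with the same replicate number were paired. Same-numbered deviations had an r of -0.02 to 0.20 over 6 pairs of groups, with only FGF19 + TNFα and FGF19 over 0.1. Low values cannot exclude pairing. With the block, 3 genes were called higher with TNFα against Mock, 4 by the F test, and over all probesets 237 higher and 21 lower with TNFα, against 322 and 32 without it. Over all alternatives those counts were 88 to 559 and 2 to 73. They were 3306 to 6414 higher and 2340 to 5351 lower with FGF19 against Mock, 2608 to 6920 and 1872 to 4971 with FGF19 + TNFα against TNFα, 0 to 220 and 0 to 14 with FGF19 + TNFα against FGF19, 3196 to 6727 and 2436 to 5567 with FGF19 + TNFα against Mock, 0 to 10 and 0 to 4 for the interaction, and 1115 to 9773 by the F test.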
